A study of Rattus norvegicus with 35 samples.

Results

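The genes described here are those on the array whose names begin with Bmp, Gdf or Fgf, the bone morphogenetic proteins, the growth and differentiation factors and the fibroblast growth factors, together with their receptors and binding proteins. They were found by the gene name given in the scanner files, without regard to case or to a trailing "predicted", and numbered 65 probes for 51 genes, among 41012 probes with 35561 different names that are not controls. By role they comprised 16 BMP and GDF ligands, 18 FGF ligands, 4 intracellular FGFs (Fgf11 to Fgf14), 8 receptors, 2 binding proteins (Bmper and Fgfbp1), the protease Bmp1, and 2 genes that carry only the name, the kinase gene Bmp2k and Fgfr1op2. The names used are those of the files; in the reference table of rat genes, Gdf8 is now Mstn and Fgf15 is now Fgf19. RNA came from the olfactory epithelium of Brown Norway rats, an inbred strain, and the labels name no treatment. The newborn group held 19 pups of unknown sex aged 3 to 5 days, 4 from litter L1 and 5 from each of L2, L3 and L4, with 1 side of the nose used per pup; the litters and their mothers came from 1 supplier. The adult group held 4 males aged 9 weeks and the old group 4 males aged 22 months kept in the animal house for nearly all of their life, with 2 arrays per rat, one for each side.

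BMPs and GDFs are secreted dimers of the TGF-β superfamily. They bind type I and type II serine/threonine kinase receptors, the receptors phosphorylate Smad proteins, and secreted antagonists such as noggin and chordin keep the ligand from the receptor. Secreted FGFs bind tyrosine kinase receptors with heparan sulphate as a cofactor and act through Ras and MAP kinase, with Sprouty and Spred proteins as feedback inhibitors, while the intracellular FGFs are not secreted and bind voltage-gated sodium channels. In the olfactory epithelium, whose sensory neurons are replaced throughout life, both families are known for their effects on the basal progenitors: Fgf2 and Fgf8 favor their division or survival, BMPs can block or support neurogenesis depending on dose, and Gdf11 is a negative feedback signal made by the neurons themselves.

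Each probe is a strand of 60 bases. For 10 probes these bases lie over more than 60 bases of the genome in build rn3, so that their match to the genome is split by at least 1 gap, as it is across an intron. The sequences of 7 of them are shown because the results below refer to these ligands and receptors. They are printed 5′ to 3′ in the sense of the messenger RNA, entirely in lower case since no base within them carries a separate finding.
Fgf12, chr11:74319348-74344639, plus strand: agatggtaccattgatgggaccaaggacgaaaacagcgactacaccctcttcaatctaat
Fgf21, chr1:96160862-96161441, minus strand: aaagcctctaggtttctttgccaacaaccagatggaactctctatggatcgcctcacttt
Fgf22, chr7:11463490-11463629, minus strand: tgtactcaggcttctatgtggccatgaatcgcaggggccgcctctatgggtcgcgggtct
Fgf8, chr1:251211881-251212838, minus strand: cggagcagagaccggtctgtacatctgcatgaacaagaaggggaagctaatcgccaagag
Fgfr1, chr16:70870412-70870577, minus strand: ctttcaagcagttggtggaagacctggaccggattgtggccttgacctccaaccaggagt
Fgfr2, chr1:189649579-189651564, minus strand: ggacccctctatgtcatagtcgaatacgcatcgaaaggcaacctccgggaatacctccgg
Fgfr3, chr14:82686479-82686713, minus strand: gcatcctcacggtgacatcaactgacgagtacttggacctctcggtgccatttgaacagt
The Fgf12 probe spans 25292 bases of chromosome 11 and the Fgf22 probe 140 bases of chromosome 7. Annotation of exons and untranslated regions in rn3 was not used here.

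An expression level below is the log2 of the background-subtracted intensity of a probe divided by the median intensity of its array, averaged over both arrays of an adult or old rat, and can be compared between rats but not between probes. Median intensities lay between 37.1 and 162 across the 35 arrays. They were 81.6 to 162 on adult, 37.1 to 55.3 on old and 42.1 to 87.7 on newborn arrays. Levels are divided by this median, and its part in the low adult levels of dim members was not tested. The adult arrays were scanned on 2 days of their own, with an earlier release of the scanner software (9.5.1.1 against 9.5.3.1), so that adult age and scan day cannot be told apart; L1 and the old rats shared a scan day. Age is also confounded with sex as far as the sex of the pups is unknown. Markers of mature neurons (Omp, Gnal, Cnga2, Adcy3 and Stoml3) and of sustentacular cells (Cyp2g1, Cyp2a3, Cbr1, Gpx6 and Ugt2a1) were above background on all 35 arrays. Other tissues contributed as well: the summed level of 6 fibroblast markers was 11.59 to 12.88 in pups, 11.08 to 11.78 in adult and 8.63 to 9.55 in old rats, that of 7 osteoblast markers 9.95 to 11.69, 10.35 to 11.25 and 8.41 to 9.32, and that of 7 chondrocyte markers 6.28 to 8.51, 4.45 to 4.75 and 3.97 to 4.45. Among these lists the widest gap between pups and older rats was that of 4 skeletal muscle markers (Acta1, Ckm, Myh3 and Tnnt3), whose sum was 3.84 to 8.66 in pups, −0.43 to 0.81 in adult and −1.02 to −0.16 in old rats; all 4 were above background on all 19 newborn arrays. Pups were also above all older rats in the sums of 5 endothelial markers (4.70 to 6.36, 3.82 to 3.99 and 3.36 to 3.75), 4 proliferation markers (7.22 to 7.96, 5.73 to 6.31 and 5.52 to 5.76) and 4 markers of globose basal cells, the neuronal progenitors (8.55 to 9.76, 7.49 to 7.77 and 7.93 to 8.15). Each sum adds unlogged levels, so that the brightest markers of a list weigh most. Of the endothelial markers, only 1, Kdr, was expressed in every group. Tek was above background on 0 arrays, Pecam1 on 8 arrays and Cdh5 on 0 adult arrays. The sum of 3 red cell markers was 7.97 to 10.03 in pups, 5.74 to 6.79 in adult and 7.40 to 8.58 in old rats. The part of these lists in the members that were higher in pups was not tested. No list of these tissues was at 0: 0 of 6 fibroblast, 0 of 7 osteoblast and 0 of 7 chondrocyte markers were below background on every array. In RNA from whole epithelium, fewer cells of a type and less RNA per cell cannot be told apart. The p values treat rats as replicates and therefore measure the spread between rats within a litter or age group. Spread between litters does not enter them.

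Which of these signals can be detected at all was asked first. As in the methods of the study, a gene was expressed in a litter with at least 3 arrays above background, and in adult or old rats with at least 6 of 8. By this rule L1 expressed 39 members, L2 35, L3 and L4 37 each, adult rats 34 and old rats 36. In this order of groups these were 76.5, 68.6, 72.5, 72.5, 66.7 and 70.6% of the members. Of all probes, 66.7, 62.9, 64.8, 65.4, 63.6 and 62.6% were expressed. A total of 33 genes, 64.7% of the 51, were expressed in every group, against 57.7% of all probes, and 8 genes, 15.7%, were above background on no array, against 16.7% of all probes. Per array the count of members above background was 30 to 40 in pups (median 37), 32 to 37 in adult rats (median 36) and 35 to 38 in old rats (median 36.5). The number of members detected thus overlapped between the ages.

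**Figure D1:**
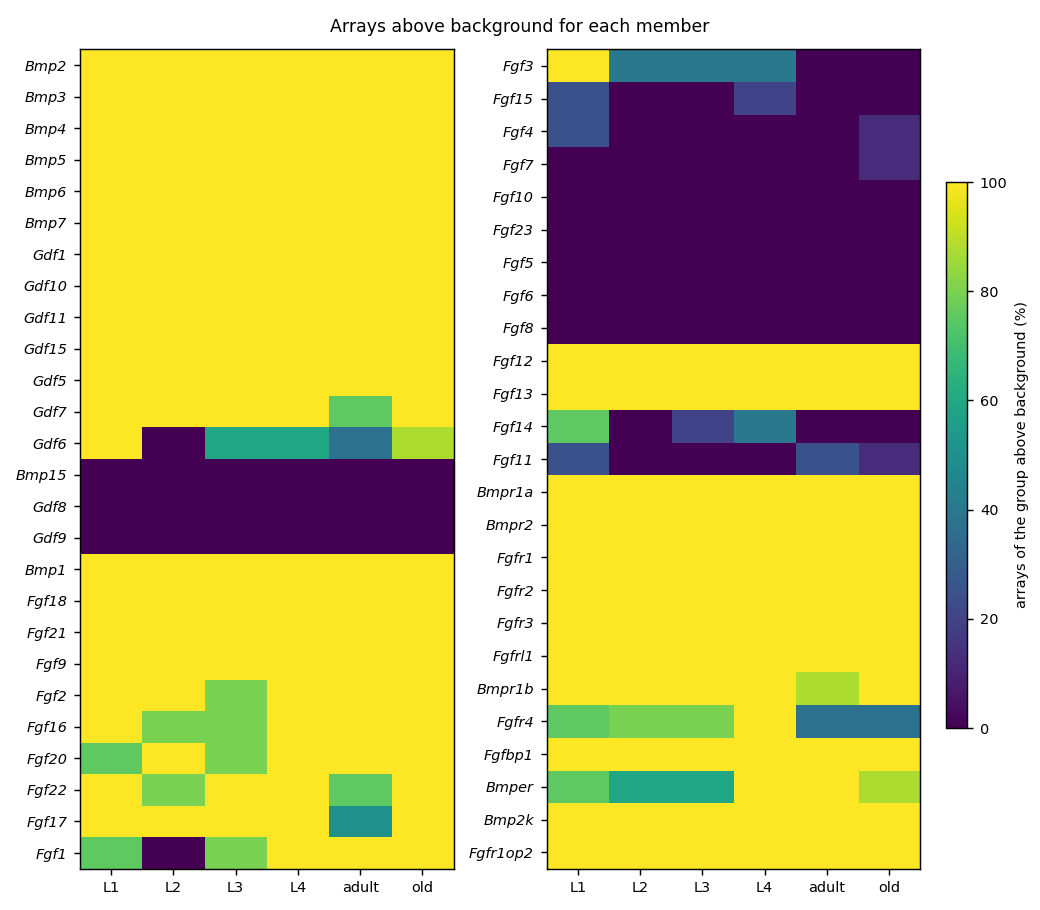
Percentage of the arrays of each group (columns; 4 or 5 pups per litter, 8 arrays each of adult and old rats) on which each of the 51 members (rows, sorted by role) was above background. Most BMP and GDF ligands and receptors are at 100% in every group, while Fgf10, Fgf23, Fgf5, Fgf6 and Fgf8 are at 0% in all 6.

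Of the BMP and GDF ligands, 12 of 16 were expressed in every group, and Bmp15, Gdf8 (myostatin) and Gdf9, known from oocytes and muscle, were above background on no array. Of the 18 secreted FGFs, 7 were expressed in every group and 5 (Fgf5, Fgf6, Fgf8, Fgf10 and Fgf23) on no array. Fgf8, a ligand of the embryonic olfactory placode, and Fgf10, a mesenchymal ligand, were therefore not well above background at any of the ages. Receptors were expressed in every group in 7 of 8 cases, the exception being Fgfr4, above background on 16 newborn, 3 adult and 3 old arrays. Fgfr4 was expressed in all 4 litters and in neither adult nor old rats, and its levels were −2.27 to −0.88 in pups (median −1.37), −2.46, −2.68, −2.28 and −2.03 in adult and −2.09, −1.35, −2.28 and −1.53 in old rats. Its pups thus overlapped both older groups.

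Some dim FGF ligands were detected at 1 age more than at another. Fgf17, a relative of Fgf8, was above background on all 19 newborn arrays, 4 of 8 adult and 8 of 8 old arrays. Its adult levels were −0.80, −0.55, −2.60 and −2.70, with old rats at −0.21, 0.49, −0.43 and −0.84. The higher and the lower pair of adult rats were hybridized on different slides and scanned on different days, and the part of this in the level of Fgf17 was not tested. Fgf3, a ligand with known roles in inner ear and tooth development, was above background on 10 newborn arrays, on all 4 of L1 and on 2 of 5 in each other litter, and on no adult or old array. Because Fgf3 was not well above background in the older groups, only a bound can be given: its mean over the pups exceeded that of adult rats at least 1.65-fold and that of old rats at least 1.43-fold. The measured means were −1.65 for the pups, −6.36 for the adult and −5.74 for the old group. By litter, from L1 to L4, Fgf3 had means of 0.60, −3.26, −2.44 and −1.47, so that L1 weighed most in the bound. Single pups ranged from −6.64 to 2.08 and overlapped both older groups. The corresponding adjusted p values, in a fit without a filter on dim probes, were 0.000584 and 0.00238. These bounds set the mean of the pups against, on each older array, the dimmest signal well above background or the probe's own level, whichever was higher. Fgf1 was above background on 0 of 5 arrays of L2, on 12 newborn arrays in all and on all 8 adult and 8 old arrays. The intracellular Fgf14 was above background on 6 newborn and no older arrays, and Fgf15 on 2 newborn arrays. Gdf6, a relative of Gdf5, was above background on 10 newborn, 3 adult and 7 old arrays, and Fgf4, Fgf7 and Fgf11 on 1 or 2 arrays of an age at most.

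The main question was how the levels differed with age. Between newborn and adult rats, 15 of the 33 members expressed in every group were higher in newborn rats, 13 were lower and 5 did not pass, at an adjusted p below 0.01. Over all 23668 probes expressed in every group, 39.7% were higher and 26.7% lower. At 2-fold or more, 11 members were higher and 7 lower, with a background of 13.9% and 9.05%. The median log2 change of the members was 0.13, against 0.15 for all probes tested. Against old rats, 9 members were higher in newborn rats, 12 lower and 12 did not pass, with a background of 28.4% and 31.5%. At least 2-fold were 6 and 7 of them (background 9.55% and 8.86%), and the median was −0.11, against −0.03. Between adult and old rats, 5 members were higher in adult rats, 10 lower and 18 did not pass, with a background of 15.9% and 31.4%. Of these, 2 and 6 were at least 2-fold (background 4.66% and 7.49%), and the median was −0.21, against −0.18. With quantile normalization the split between adult and old rats was 9 higher and 9 lower, and with normexp background correction and quantile normalization together 7 and 6. The members higher in adult than in old rats fell to 3 without adult rat 16 or without old rat 18, and those at least 2-fold higher to 1 without adult rat 14, adult rat 16 or old rat 18. The comparisons share groups, and each is given with its own values.

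**Figure D2:**
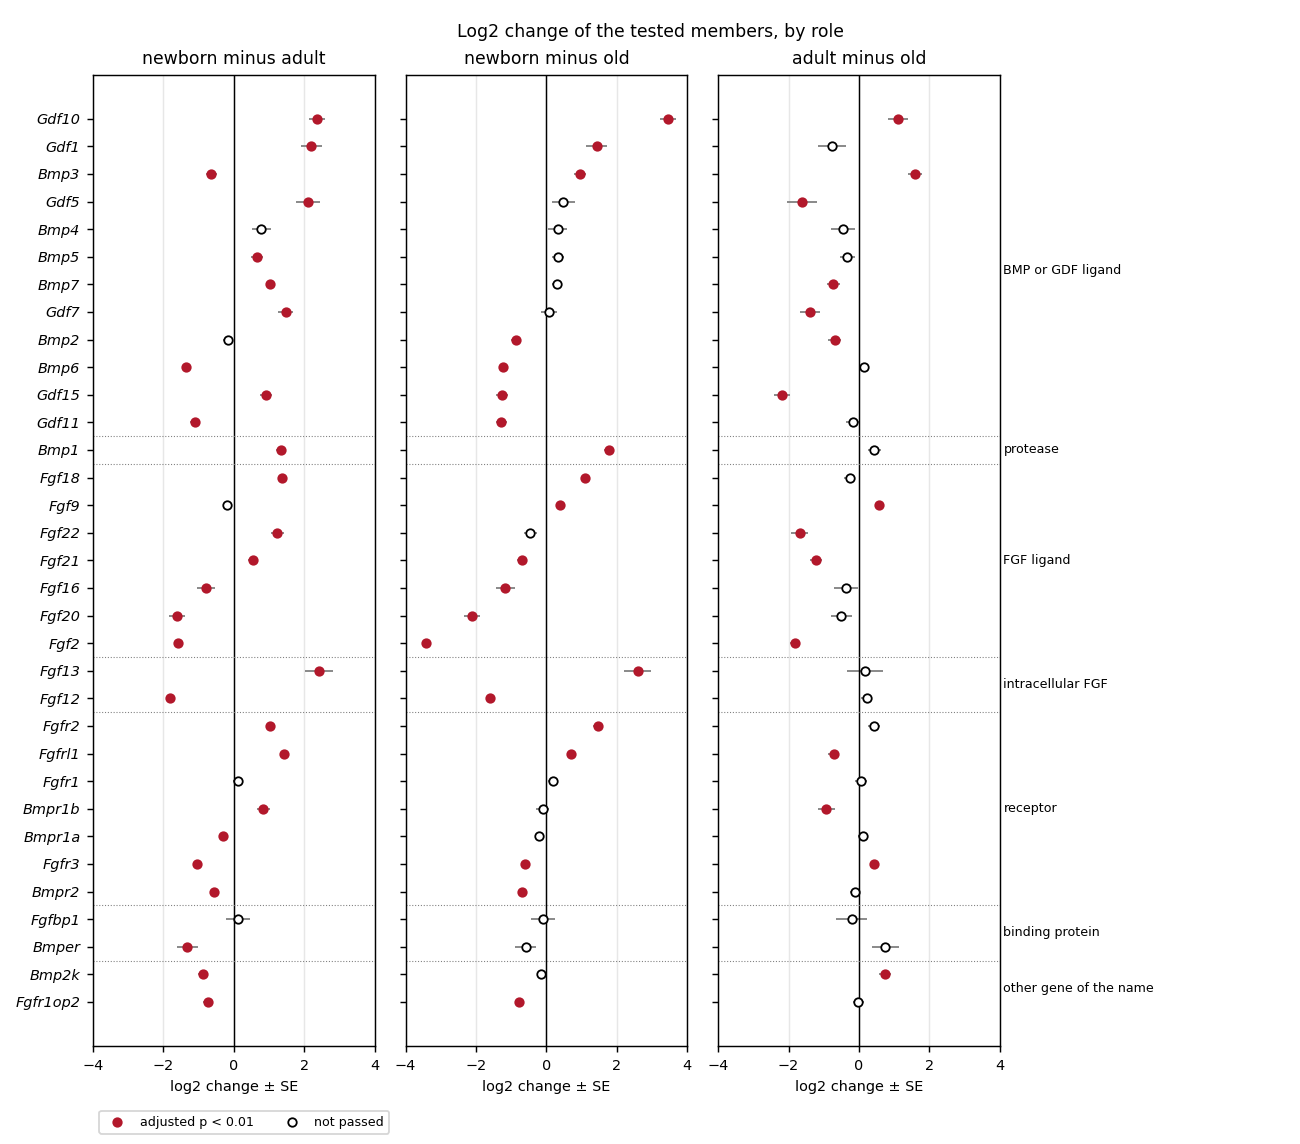
Log2 change (± SE) of the 33 members expressed in every group in newborn minus adult, newborn minus old and adult minus old rats, ordered by role. Filled points passed an adjusted p below 0.01. Gdf10 lies farthest to the right and Fgf2 farthest to the left in newborn minus old rats, at 3.45 and −3.42.

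Among the BMP and GDF ligands, 7 of 12 were higher in pups than in adult rats and 3 lower, and against old rats 3 were higher and 4 lower, where 39.7% and 26.7% of all probes passed against adult and 28.4% and 31.5% against old rats. The largest difference was that of Gdf10, also called BMP3b, a divergent ligand of the Bmp3 subgroup (probe at chr16:9570483-9570542). Its level ranged from 2.43 to 4.45 in pups (median 3.75) and was 0.84, 1.67, 0.94 and 1.87 in adult rats and 0.94, −0.55, 0.22 and 0.33 in old rats. Every pup lay above every adult and every old rat, while adult and old rats overlapped. Newborn rats were 5.11-fold above adult rats (log2 change 2.35 ± 0.22, SE; adjusted p 9.33e-10) and 10.9-fold above old rats (3.45 ± 0.22; adjusted p 1.66e-12). Between adult and old rats Gdf10 differed by 1.1 ± 0.28 (adjusted p 0.00201), a call lost without adult rat 16 (0.92, adjusted p 0.012), without old rat 18 (0.83, adjusted p 0.0147), with adult and old rats alone in the fit (adjusted p 0.014), with litter means as replicates (adjusted p 0.0109) or with the slide as a random block (adjusted p 0.0124).

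Gdf1, a ligand of left-right patterning in the embryo, was also high in newborn rats. In mammals its coding sequence shares a transcript with Cers1, a ceramide synthase, and the reference table places both genes on 1 stretch of chromosome 16, so the probe (chr16:19580916-19580975) may report either. Pups ranged from 5.46 to 7.69 (median 6.65), adult rats were at 4.78, 4.45, 3.79 and 4.32 and old rats at 5.07, 4.76, 5.04 and 5.54. Adult rats lay below every pup, and 1 old rat reached the pups. The newborn mean was 4.58-fold above the adult mean (2.20 ± 0.30; adjusted p 5.44e-07) and 2.69-fold above the old mean (1.43 ± 0.30; adjusted p 0.000201).

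Gdf5 and Gdf7, related ligands known from joint and tendon development and from the dorsal spinal cord, were lowest in adult rats. Gdf5 was at −1.44, −1.31, −1.03 and −1.22 in adult rats, at 0.32, 0.37, 0.62 and 0.18 in old rats and at −0.28 to 2.23 in pups (median 0.88). The adult rats, whose scan days were their own, were below all others, and the old rats lay within the range of the pups. The log2 change was 2.10 ± 0.33 for newborn minus adult rats (adjusted p 3.56e-06), −1.62 ± 0.42 for adult minus old rats (adjusted p 0.00206) and 0.48 ± 0.33 for newborn minus old rats (adjusted p 0.198). Gdf7 was at −1.88, −1.62, −2.15 and −1.77 in adult rats, at −0.02, −0.29, −0.79 and −0.72 in old rats and at −1.13 to 0.42 in pups, and showed the same order. Its log2 change was 1.47 ± 0.22 for newborn minus adult rats (adjusted p 1.37e-06), −1.40 ± 0.28 for adult minus old rats (adjusted p 0.000139) and 0.07 ± 0.22 for newborn minus old rats (adjusted p 0.777).

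Gdf15, a distant member known as a circulating stress signal, was also lowest in adult rats and was highest in old rats. The 4 old rats were at 3.91, 3.23, 3.16 and 3.14, the adult rats at 0.80, 1.51, 1.5 and 0.90, and the pups between 1.62 and 3.21 (median 2.14). Old rats lay above every adult rat, and all but 1 pup lay below every old rat. The old mean was 4.53-fold above the adult mean (adult minus old −2.18 ± 0.22; adjusted p 1.66e-08) and 2.4-fold above the newborn mean (−1.26 ± 0.17; adjusted p 7.32e-07). Bmp7, a ligand of kidney and eye development, was also lowest in adult rats, with means of 3.92, 2.88 and 3.61 for newborn, adult and old rats. Its adult rats, between 2.79 and 3.04, lay below every pup and every old rat. The change was 1.04 ± 0.14 for newborn minus adult (adjusted p 3.56e-07) and −0.73 ± 0.18 for adult minus old rats (adjusted p 0.00122).

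The opposite order, highest in adult rats, was that of Bmp3, an atypical ligand that opposes other BMPs in bone. Adult rats were at 2.09, 2.61, 2.29 and 2.98, old rats at 1.21, 0.48, 1.05 and 0.85, and pups at 1.25 to 2.38 (median 1.82). All old rats were below all pups and all adult rats, and pups and adult rats overlapped. Adult rats were 3.02-fold above old rats (1.59 ± 0.21; adjusted p 5.49e-07), and newborn rats 1.93-fold above old rats (0.95 ± 0.16; adjusted p 1.29e-05). The difference of −0.64 ± 0.16 between newborn and adult rats (adjusted p 0.00092) did not pass without adult rat 16 (−0.48, adjusted p 0.0149) or with litter means as replicates (adjusted p 0.0119). The osteoblast and fibroblast sums given above were likewise lowest in the old rats, at 9.32, 8.41, 9.30 and 9.00 and at 9.55, 8.75, 9.20 and 8.63 in the same rats, and adult rat 16 had the highest sum of both lists among adult rats, 11.25 and 11.78. Of 6 osteoblast markers tested, 4 were higher in adult than in old rats and 1, Runx2, was lower (−0.905, adjusted p 0.00476). The part of both lists in the levels of Bmp3, Gdf10 and Bmp1 was not tested.

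Bmp6 and Gdf11 rose from newborn to adult rats. Gdf11 (chr7:2183004-2183063), the feedback signal of olfactory neurons, ranged from 5.86 to 6.88 in pups (median 6.55) and was at 7.69, 7.47, 7.69 and 7.38 in adult and at 7.63, 7.74, 7.58 and 7.98 in old rats. Every pup was below every older rat, and adult and old rats overlapped. The adult mean was 2.16-fold (newborn minus adult −1.11 ± 0.15; adjusted p 3.78e-07) and the old mean 2.44-fold above the newborn mean (−1.29 ± 0.15; adjusted p 5.26e-08). Bmp6, a ligand that also induces hepcidin in iron metabolism, was at 1.31 to 2.30 in pups (median 1.90), at 3.34, 3.21, 3.33 and 3.07 in adult and at 2.91, 3.14, 3.05 and 3.34 in old rats. It likewise separated all pups from all older rats, with changes of −1.37 ± 0.09 against adult (adjusted p 2.79e-12) and −1.24 ± 0.09 against old rats (adjusted p 2.95e-11). The summed level of 5 mature neuron markers was 7.66 to 8.82 in pups, 10.25 to 10.68 in adult and 10.85 to 11.32 in old rats, and that of 5 sustentacular markers 9.69 to 10.95, 11.73 to 11.92 and 12.60 to 12.78. Of the 5 sustentacular markers, 4 were lower in pups than in adult rats and 1, Cbr1, was higher (0.745, adjusted p 5.13e-06). The part of these marker levels in the levels of Gdf11 and Bmp6 was not tested.

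The classical BMP ligands Bmp2, by its brighter probe, and Bmp4 differed less. Bmp2 had means of 3.35, 3.52 and 4.22 at the successive ages and was higher in old rats than in both other groups (newborn minus old −0.86 ± 0.14, adjusted p 4.51e-06; adult minus old −0.70 ± 0.17, adjusted p 0.00142). Its second, dimmer probe gave 0.33 ± 0.18 for adult minus old rats, in the other direction (adjusted p 0.121). For newborn minus adult rats the dimmer probe gave −1.23 ± 0.14 (adjusted p 2.62e-08), and the brighter −0.17 ± 0.14 (adjusted p 0.259). Bmp4 passed in no comparison: its means were 1.48, 0.70 and 1.15, and pups alone ranged from 0.49 to 3.38. The highest pup, rat 11 of L1, and rat 9 of the same litter (1.97) also had the highest sums of 4 horizontal basal cell markers, 11.04 and 10.47 against 7.79 to 9.81 in the other pups. They were at 3.86 and 3.62 for Bmp2, 4.56 and 4.28 for Bmp7 and 1.99 and 0.78 for Fgf3. Pups with lower sums reached similar levels: rat 23 (sum 8.39) was at 3.89 for Bmp2. Rat 35 (sum 8.99) was at 4.36 for Bmp7, 2.08 for Fgf3 and 2.1 for Bmp4. Rat 30 (sum 9.81) was at 0.84 for Bmp4. Of the markers, Krt5 and Krt14 had their highest litter mean in L1 (6.67 and 8.94). Icam1 had its lowest there, 2.87 against 4.12, 3.35 and 3.34 in L2 to L4. The part of these markers in the levels was not tested. The change in Bmp4 between newborn and adult rats was 0.77 ± 0.27 (adjusted p 0.0118), and the adjusted p lay between 0.00354 and 0.0491 under the alternatives. Of the other BMP ligands, Bmp5 was 0.66 ± 0.17 higher in newborn than in adult rats (adjusted p 0.00101) and did not pass in the other comparisons.

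**Figure D3:**
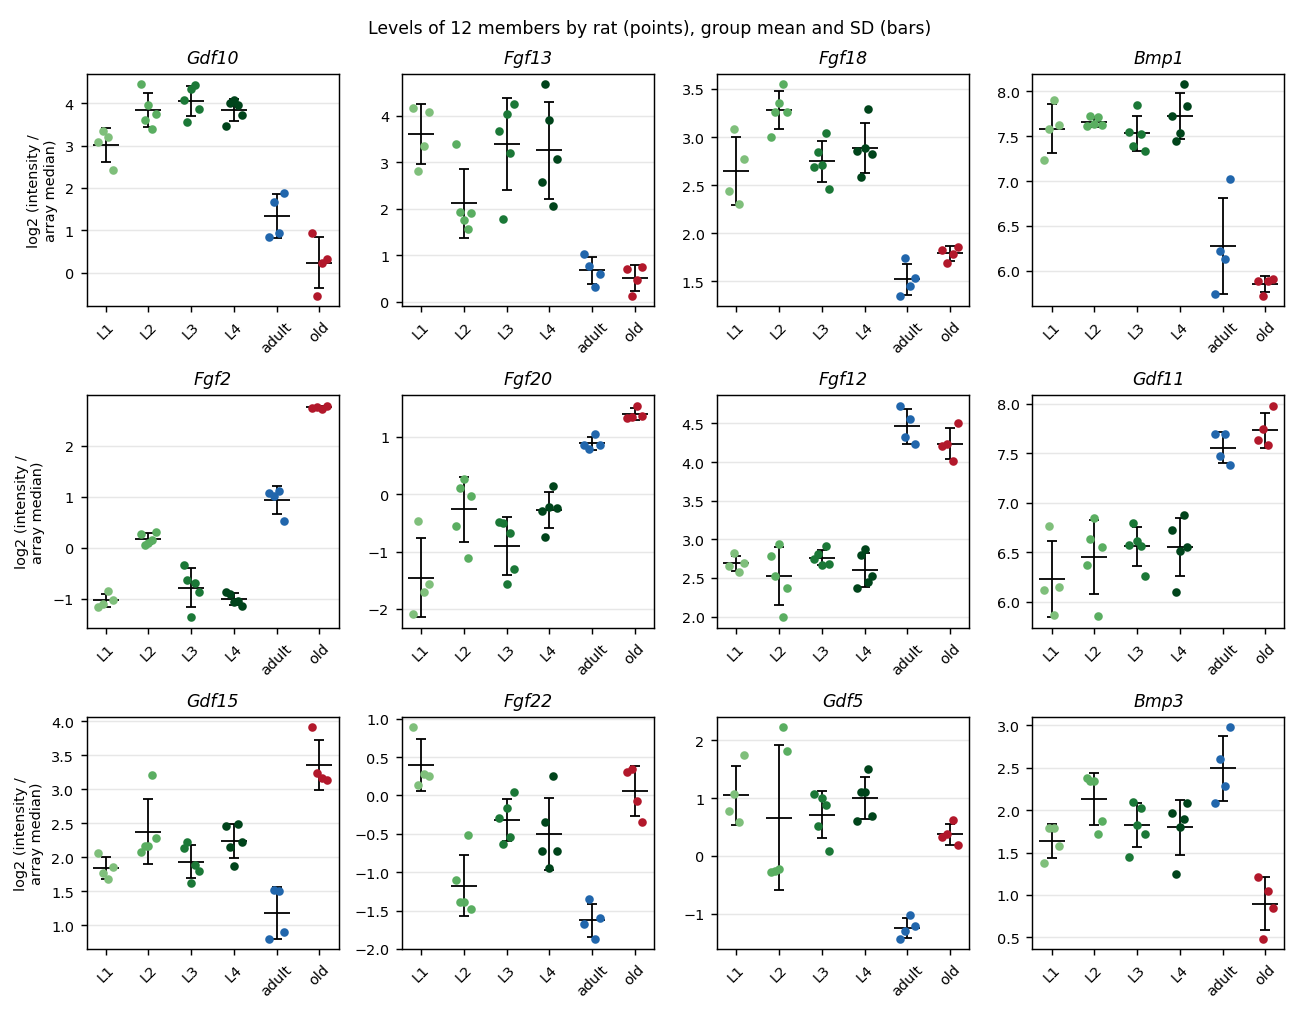
Levels of 12 members, as log2 of the intensity over the array median (vertical axis, own range per panel), in every rat of the 4 litters, adult and old rats; bars give the group mean and SD. In the upper row every pup lies above every older rat and in the middle row below them. In the lower row the adult or the old rats stand apart, except for Fgf22, whose pups overlap both.

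Bmp1 is not a growth factor but a metalloprotease that cuts procollagen and chordin. Its brightest probe (chr15:50893964-50894023) was at 7.23 to 8.08 in pups (median 7.62), at 5.74, 6.22, 6.13 and 7.02 in adult rats and at 5.88, 5.72, 5.89 and 5.91 in old rats. Pups lay above all older rats, and adult rat 16 was closest to them. Newborn rats were 2.54-fold above adult (1.35 ± 0.14; adjusted p 8.84e-09) and 3.42-fold above old rats (1.77 ± 0.14; adjusted p 1.13e-10). The fibroblast sums stood in the same order of ages, and 5 of 6 fibroblast markers passed with higher levels in pups than in adult rats; their part in the level of Bmp1 was not tested.

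Among the secreted FGFs, 3 of 7 were higher and 3 lower in pups than in adult rats, and 2 were higher and 4 lower than in old rats, with 39.7% and 26.7% of all probes against adult and 28.4% and 31.5% against old rats. Fgf2, basic FGF, is a mitogen of olfactory progenitors in culture (chr2:123896714-123896773). Its level was −1.37 to 0.30 in pups (median −0.87), 1.08, 1.02, 1.12 and 0.52 in adult rats and 2.74, 2.77, 2.72 and 2.79 in old rats. The groups did not overlap in any pair, and the old rats lay close to each other. Adult rats were 3.03-fold (newborn minus adult −1.60 ± 0.12; adjusted p 7.73e-12) and old rats 10.7-fold above newborn rats (−3.42 ± 0.12; adjusted p 9.75e-18), and old rats 3.53-fold above adult rats (adult minus old −1.82 ± 0.15; adjusted p 4.66e-10). For L1 against old rats, which shared a scan day, the change was −3.79 ± 0.15 with the spread taken from all groups (adjusted p 6.59e-16) and −3.79 ± 0.089 with no other rat in the fit (adjusted p 3e-08), a fit added after the data were seen. A second probe for Fgf2, lying 655 bases further along the gene, was above background on 0 newborn, 5 adult and 8 old arrays and had means of −3.93, −2.41 and −0.98.

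Fgf20, a ligand of the Fgf9 subfamily with known roles in the inner ear and midbrain, showed the same order. It was at −2.08 to 0.27 in pups (median −0.50), at 0.85, 0.79, 1.05 and 0.85 in adult and at 1.32, 1.34, 1.54 and 1.36 in old rats. No groups overlapped, with changes of −1.61 ± 0.23 against adult (adjusted p 1.08e-06) and −2.11 ± 0.23 against old rats (adjusted p 2.03e-08). Adult minus old rats came to −0.50 ± 0.30 and did not pass in the fit over all groups (adjusted p 0.15). It passed with adult and old rats alone in the fit (adjusted p 0.00101), where the spread among pups does not enter. Fgf16, of the same subfamily, had means of −1.26, −0.47 and −0.10 at the successive ages, with a change of −1.17 ± 0.26 against old rats (adjusted p 0.000347). For Fgf16 against adult rats, −0.79 ± 0.26 (adjusted p 0.00844), the adjusted p ranged up to 0.03 under the alternatives.

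Fgf9, the third member of that subfamily and a signal from epithelium to mesenchyme, went the other way in old rats. Its adult levels of 1.84, 1.64, 1.82 and 1.65 lay above its old levels of 1.15, 1.13, 1.13 and 1.25, a difference of 0.57 ± 0.09 (adjusted p 1.12e-05). Pups ranged from 1.0 to 1.91 and overlapped both. Fgf18, a ligand of bone and cartilage growth, was higher in newborn rats. It was at 2.30 to 3.55 in pups (median 2.85), at 1.35, 1.74, 1.45 and 1.54 in adult and at 1.83, 1.69, 1.78 and 1.86 in old rats. Every pup was above every older rat, by 1.37 ± 0.12 against adult (2.59-fold; adjusted p 2.93e-10) and 1.1 ± 0.12 against old rats (2.15-fold; adjusted p 2.01e-08). The chondrocyte sums given above were also higher in every pup than in every older rat, and their part in the level of Fgf18 was not tested.

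Fgf22 and Fgf21 shared the low adult level of Gdf5, Gdf7 and Gdf15. Fgf22, an organizer of synapses and a ligand of skin (its probe is printed above), was at −1.68, −1.35, −1.87 and −1.60 in adult rats and at 0.31, 0.34, −0.07 and −0.34 in old rats. The old rats were all above the adult rats, by 3.22-fold (adult minus old −1.69 ± 0.24; adjusted p 1.87e-06). Pups, from −1.48 to 0.89 (median −0.51), overlapped both groups, and newborn minus adult was 1.23 ± 0.19 (adjusted p 2.12e-06). Fgf21, a hormone of fasting that needs the coreceptor β-klotho, was at −0.97, −0.93, −0.82 and −0.72 in adult and at 0.47, 0.15, 0.29 and 0.54 in old rats. These did not overlap (−1.22 ± 0.18; adjusted p 3.78e-06), and pups lay from −0.92 to 0.17 (median −0.32). The coreceptor gene Klb was not expressed in any group.

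The intracellular FGFs were split. Fgf13, on the X chromosome (chrX:144273117-144273176), ranged from 1.57 to 4.68 in pups (median 3.21) and was at 1.02, 0.78, 0.32 and 0.59 in adult and 0.70, 0.13, 0.46 and 0.75 in old rats. Pups lay above all older rats, and they varied widely within a litter, with an SD of 0.64 to 1.04 in the 4 litters. Newborn rats were 5.33-fold above adult (2.41 ± 0.39; adjusted p 6.05e-06) and 6.0-fold above old rats (2.58 ± 0.39; adjusted p 3e-06). Fgf12 went the opposite way: with the probe printed above it was at 1.99 to 2.94 in pups (median 2.68), at 4.73, 4.33, 4.56 and 4.23 in adult and at 4.21, 4.23, 4.02 and 4.5 in old rats. All pups were below all older rats, by 3.53-fold against adult (−1.82 ± 0.12; adjusted p 2.2e-12) and 3.02-fold against old rats (−1.59 ± 0.12; adjusted p 4.21e-11). Neither differed between adult and old rats beyond the threshold, with adjusted p values of 0.79 for Fgf13 and 0.228 for Fgf12.

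Of the 7 receptors tested, 3 were higher and 3 lower in pups than in adult rats, with 39.7% and 26.7% of all probes. Fgfr2, the receptor of Fgf7 and Fgf10 on epithelia, was at 6.27 to 7.29 in pups (median 6.90), at 5.46, 5.85, 5.61 and 6.39 in adult and at 5.60, 5.24, 5.37 and 5.39 in old rats by its brightest probe (chr1:189632954-189633013). All pups were above all old rats, and adult rat 16 reached the lowest pup. The changes were 1.04 ± 0.13 against adult (2.05-fold; adjusted p 1.19e-07) and 1.47 ± 0.13 against old rats (2.76-fold; adjusted p 5.22e-10). Fgfrl1, a receptor without a kinase domain, had adult rats at 5.81, 5.62, 5.80 and 5.91, below the old rats at 6.40, 6.59, 6.48 and 6.56 and below every pup (6.34 to 7.78). It was 2.69-fold higher in newborn than in adult rats (1.43 ± 0.12; adjusted p 1.08e-10), and adult minus old was −0.72 ± 0.15 (adjusted p 0.000301).

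Fgfr3 was lowest in newborn and highest in adult rats. Pups ranged from 0.51 to 1.64 (median 1.17), adult rats were at 2.04, 2.21, 2.04 and 2.64 and old rats at 1.83, 1.78, 1.71 and 1.85, and no groups overlapped. Newborn minus adult was −1.04 ± 0.11 (adjusted p 4.96e-09) and newborn minus old −0.60 ± 0.11 (adjusted p 2.81e-05). Adult minus old, 0.44 ± 0.14 (adjusted p 0.00871), was close to the threshold, with adjusted p values from 0.00242 to 0.0819 under the alternatives. This call was lost in 24 of 43 alternatives, among them adult and old rats alone in the fit (adjusted p 0.0164). Fgfr1, the receptor with the probe printed above, passed in no comparison: its means were 5.17, 5.05 and 4.99 at the successive ages, and the newborn minus old change was 0.19 ± 0.14.

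Among the BMP receptors, Bmpr2, the type II receptor, was lower in newborn than in adult (−0.58 ± 0.10; adjusted p 1.89e-05) and old rats (−0.69 ± 0.10; adjusted p 2.03e-06), although pups of L1 overlapped the older rats. The type I receptor Bmpr1a had means of 4.06, 4.37 and 4.27, and its newborn minus adult change of −0.31 ± 0.09 (adjusted p 0.0047) did not pass when any 1 of the 4 adult rats was left out, with litter means as replicates (adjusted p 0.0174) or with the slide as a random block (adjusted p 0.0227). With normexp and quantile normalization this change was larger, −0.724 (adjusted p 1.2e-10). A second, dimmer probe of Bmpr1a changed by −1.61 ± 0.14 between newborn and adult rats (adjusted p 4.4e-10). Bmpr1b, the other type I receptor, was lowest in adult rats, with means of −0.24, −1.07 and −0.13. Bmpr1b differed by 0.83 ± 0.19 between newborn and adult rats (adjusted p 0.000325) and by −0.94 ± 0.24 between adult and old rats (adjusted p 0.00176), and the second of these did not pass without adult rat 16 (−0.78, adjusted p 0.0108).

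Of the remaining members tested, Bmper, a secreted BMP regulator, was 1.33 ± 0.30 lower in newborn than in adult rats on the log2 scale (adjusted p 0.000322). Fgfbp1, which releases FGFs from the matrix, passed in none of the comparisons of ages, with pups between −0.44 and 3.22. The kinase gene Bmp2k was highest in adult rats (means −0.36, 0.53 and −0.21), at 0.74 ± 0.17 above old rats (adjusted p 0.000763). Fgfr1op2 was lower in newborn than in adult rats by 0.75 ± 0.12 on the log2 scale (adjusted p 4.02e-06) and in adult and old rats had means of 6.41 and 6.44.

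Several genes were measured by more than 1 probe, which shows how far a result rests on 1 of them. There were 11 such genes with 25 probes, and in 7 of them at least 2 probes were expressed in every group. Both Gdf11 probes, 3261 bases apart, gave nearly the same changes, −1.11 and −1.19 against adult and −1.29 and −1.32 against old rats. In none of the 7 genes did probes pass in opposite directions. They differed in size, however. For Bmp1, the probe farthest upstream, 16843 bases from the last, changed by 0.16 ± 0.16 between newborn and adult rats (adjusted p 0.366), where the last probe changed by 1.35, and by 2.09 between adult and old rats (adjusted p 7.88e-09), where the last changed by 0.43. For Bmpr1a the upstream probe, 10789 bases away, changed by −1.61 and 0.83 in these comparisons, and the last by −0.31 and 0.10. For Bmp2 the upstream probe, 616 bases away, changed by −1.23 and 0.33, and the last by −0.17 and −0.70. For Fgfr2 the upstream probe printed above changed by 0.28 and 0.84, and the last by 1.04 and 0.43. In these 4 genes the upstream probe thus placed the adult rats higher relative to both other ages than the last probe did. In Bmpr2 and Fgfr1op2 the order was the reverse against newborn rats, −0.05 upstream and −0.58 at the last probe for Bmpr2, −0.15 and −0.75 for Fgfr1op2. The probe of Fgfr2 farthest upstream was above background on 14 newborn, 7 adult and 0 old arrays. Differences between probes of a gene were not tested.

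**Figure D4:**
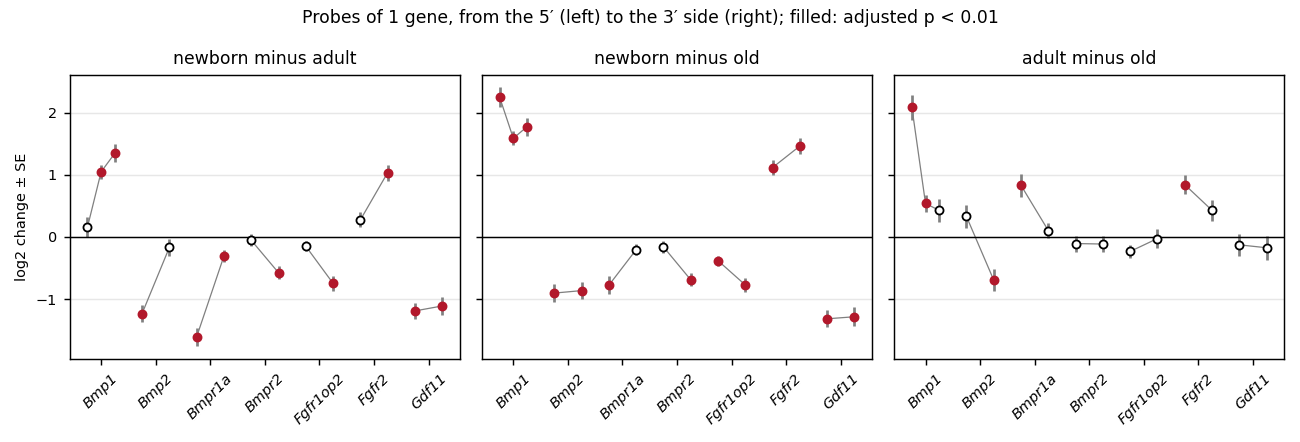
Log2 change (± SE) of each probe expressed in every group for the 7 members with at least 2 such probes, from the 5′ side (left) to the 3′ side (right) of the gene; filled points passed an adjusted p below 0.01. The probes of Gdf11 coincide, whereas those of Bmp1, Bmp2, Bmpr1a and Fgfr2 lie apart in newborn minus adult rats.

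The litters were compared with each other, since pups of 1 litter share a mother and were 3 to 5 days old. Among the 33 members, 10 differed among the 4 litters (adjusted p below 0.01, F test in limma), against 37.9% of all probes tested. The smallest adjusted p was that of Fgf2 (1.62e-07): L2 was at 0.27, 0.06, 0.10, 0.15 and 0.30, above all 14 pups of the other litters, whose means were −1.04 (L1), −0.78 (L3) and −1.01 (L4). All litters remained below every adult rat. Fgf22 (adjusted p 4.46e-05) had means of 0.39, −1.17, −0.32 and −0.50 from L1 to L4, and L2 was thus nearest to the adult rats. The difference of Fgf22 between newborn and old rats, −0.46 over all litters, was 0.33 for L1 alone. For Fgfr1op2 (adjusted p 0.000218) L1 was lowest, with a mean of 5.12 against 5.96, 5.78 and 5.79, and for Bmpr2 (adjusted p 0.000254) L1 was highest, with 3.14 against 2.54, 2.59 and 2.43. L1 was scanned on another day than L2 to L4, so that for both genes litter and scan day cannot be told apart. Litter and slide also largely coincided, so that differences among litters may be differences among slides, which was not tested. Rat 24, the only L2 pup on another slide, was at −0.51 for Fgf22, with the other L2 pups at −1.48 to −1.10. For Fgf2 rat 24 was at 0.15, within the range of the other L2 pups. On the shared scan day, L1 against old rats gave 7 members higher and 11 lower of 33, with 17.9% of all probes higher and 30.6% lower and the spread taken from all groups. Bmpr2 (−0.23, adjusted p 0.141), Fgf9 (0.15, adjusted p 0.17), Fgfr3 (−0.38, adjusted p 0.0214) and Fgfrl1 (0.30, adjusted p 0.0959) did not pass there. With no other rat in the fit, Fgfr3 passed (adjusted p 0.00978) and Fgf21 did not (−0.64, adjusted p 0.0152).

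The other genes of these pathways were taken from a list of ligands, receptors, antagonists, Smads and targets. Of 58 genes listed for BMPs and GDFs, 50 were on the array and 36 expressed in every group. In newborn against adult rats 17 were higher and 9 lower, in newborn against old rats 13 and 7, and in adult against old rats 7 and 7. Of all probes tested, 39.7% and 26.7%, 28.4% and 31.5%, and 15.9% and 31.4% passed in these directions. The median changes of the list were 0.34, 0.21 and 0.10, against 0.15, −0.03 and −0.18 for all probes. Among the antagonists, follistatin (Fst, 2.35 ± 0.21 above adult and 1.56 ± 0.21 above old rats) and chordin (Chrd, 0.99 and 1.54) were higher in newborn rats. Noggin (Nog) was highest in adult rats, at −0.88 for newborn minus adult and 1.34 for adult minus old rats. Twsg1, which binds chordin and BMPs, was also highest in adult rats, at −2.4 and 1.21, and its newborn minus old change was −1.19. The transcription factor Msx1, a target of BMPs, was 2.10 and 2.73 higher in newborn than in adult and old rats. The inhibitors of differentiation, also targets, did not go together: newborn minus adult was −0.85 for Id1, 0.57 for Id2, 1.32 for Id3 and −0.92 for Id4, each with an adjusted p below the threshold. Of the receptors outside the rule, Acvr1 was 1.33 lower on the log2 scale in newborn than in adult rats, and Acvrl1, an endothelial receptor, 1.5 higher.

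Of 40 genes listed for FGFs, 34 were on the array and 28 expressed in every group, with 10 higher and 8 lower in newborn than in adult, 10 and 9 against old, and 5 and 7 in adult against old rats. The shares of all probes are those given for the BMP and GDF list, and the median changes of the FGF list were −0.01, −0.08 and 0.11. Among the feedback inhibitors and targets, Spry1 was lower in newborn than in adult (−0.94; adjusted p 4.27e-06) and old rats (−1.51; adjusted p 3.51e-09). Spred1 was highest in adult rats, at −1.10 for newborn minus adult and 0.70 for adult minus old rats. Etv5, an FGF-induced transcription factor, was lowest in adult rats, at 1.54 for newborn minus adult (adjusted p 1.56e-12) and −0.97 for adult minus old rats, and the adaptor phosphatase Ptpn11 had the same order, at 1.58 and −1.05. The docking protein Frs3 had the opposite order to its relative Frs2, at −1.52 against 0.77 for newborn minus adult rats. Neither target Dusp6 (−0.17; adjusted p 0.22) nor Spry2 (−0.23; adjusted p 0.0187) passed between newborn and adult rats.

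**Figure D5:**
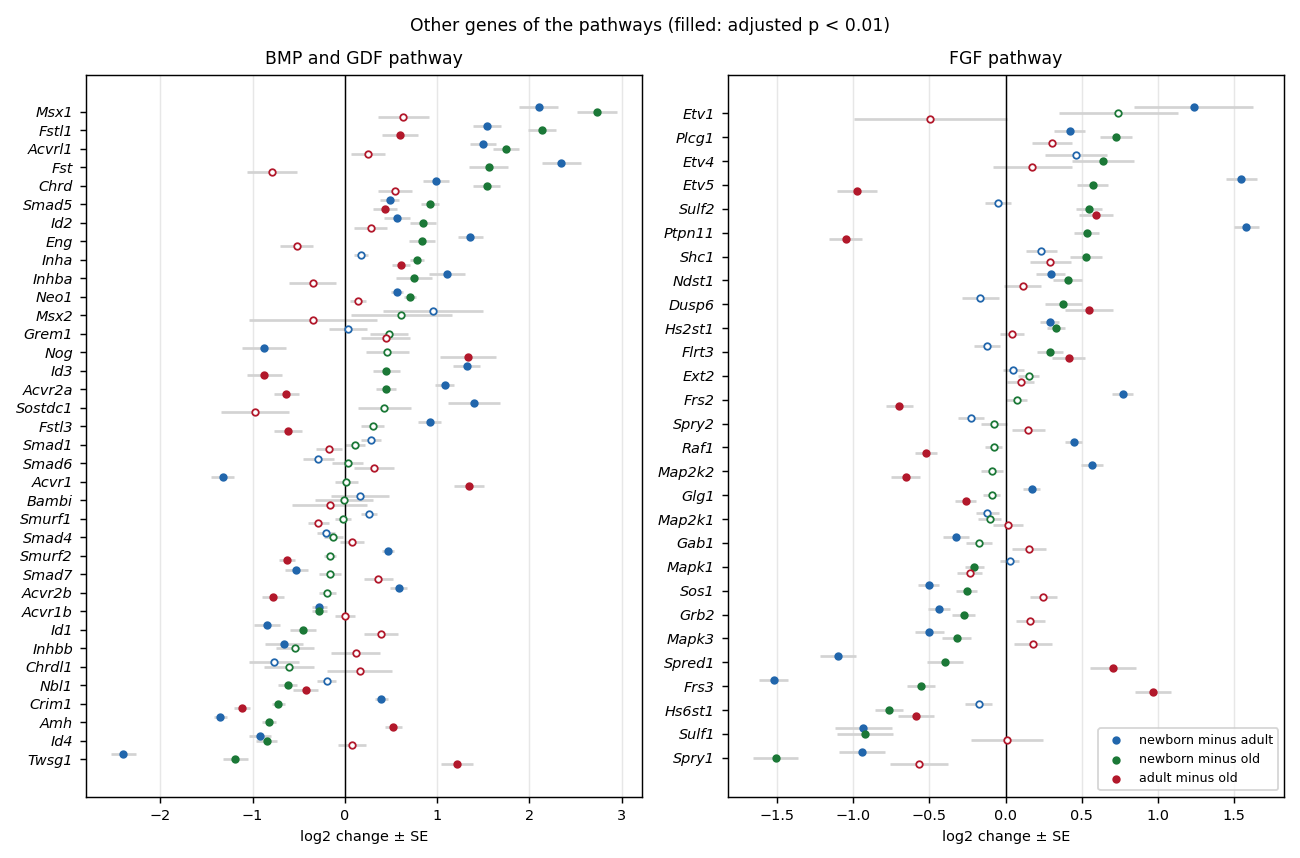
Log2 change (± SE) of the 36 BMP and GDF pathway genes (left) and 28 FGF pathway genes (right) expressed in every group, other than those named Bmp, Gdf or Fgf, in newborn minus adult, newborn minus old and adult minus old rats. Filled points passed an adjusted p below 0.01; Msx1 lies farthest to the right at 2.73 and Twsg1 farthest to the left at −2.4.

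The size of a change depended on background correction and scaling. With normexp and quantile normalization, newborn minus old rats came to −1.72 for Fgf2, 2.20 for Gdf10, −0.75 for Fgf20 and 1.70 for Fgf13, and adult minus old rats to −0.32 for Fgf22 and −0.57 for Gdf5. The direction of these changes was the same as above. The number of members at least 2-fold higher or lower in pups than in adult rats was then 4 and 3. Between adult and old rats, calls were gained for Bmp1 (0.968, adjusted p 9.35e-05) and Bmpr1a (0.507, adjusted p 6.15e-06). Fgf20 (−0.215, adjusted p 0.00601) and Fgfr2 (0.725, adjusted p 0.000796) were gained there too. Bmp2 (−0.528, adjusted p 7.51e-05) and Fgf9 (−0.216, adjusted p 3.42e-05) were gained between newborn and adult rats. Bmpr1a (−0.217, adjusted p 0.00276) was gained between newborn and old rats. The calls between adult and old rats were lost for Gdf5 (adjusted p 0.0346), Gdf7 (−0.23, adjusted p 0.0151), Bmp2 (−0.27, adjusted p 0.0874), Bmp7 (−0.41, adjusted p 0.0261), Bmpr1b (−0.17, adjusted p 0.0453), Fgfr3 (0.21, adjusted p 0.0259) and Gdf10 (0.43, adjusted p 0.0756), between newborn and adult rats for Bmpr1b (0.16, adjusted p 0.0136), and with quantile normalization alone for Fgfrl1 (−0.31, adjusted p 0.0255). With the methods' t-test the calls between newborn and adult rats were lost for Bmp1, Bmp3, Bmpr1b, Fgfr2 and Gdf15, at Benjamini-Hochberg adjusted p values from 0.0162 to 0.0576, and those between adult and old rats for Bmpr1b, Fgfr3 and Gdf10, from 0.0231 to 0.0819.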

How the data were processed

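RNA of the olfactory epithelium was hybridized to 35 Agilent whole rat genome arrays with 1 dye (27 rats, 10 slides, 5 scan days). The authors scanned the arrays with Agilent Feature Extraction and deposited, for each spot, a background-subtracted intensity that is not normalized between arrays, with quality flags. They also deposited a matrix of ratio values with a floor of 0.01, in which arrays and probes had been centred and 99.65% of the lines had 1 constant against the scanner values (SD of the log2 below 0.01); it served only as an alternative. Its columns have medians of 0.723 to 0.978, it is linear and runs in the direction of the scanner values, and what the constant of each probe stands for is not known.

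Control spots were left out, 4189 spot values with an outlier flag on 732 probes were dropped and repeated spots averaged. Intensities were divided by the array median, set to at least 0.01 and taken as log2, and both arrays of each older rat were averaged into 1 value. A probe counted as above background where the scanner's flags for significance and for a signal well over background were set, and those for an uneven or saturated spot were not, on at least 0.5 of its spots. The number of arrays limits the precision.

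The limma package (version 3.58.1 in R 4.3.3; lmFit and eBayes) was fitted over 6 groups with newborn rats as the mean of 4 litters, and p values were adjusted by Benjamini-Hochberg over 23668 probes expressed in every group, with 0.01 as the threshold. On simulated data with the spread of these probes, 90 of 100 genes changed by 1 on the log2 scale and 99 of 100 changed by 2 were recovered for newborn against adult rats. Only 200 probes were changed there, and the simulated rats had no differences between litters, slides or scan days. Recovery in the real data, which hold such groups, was therefore not measured. A gene with several probes was represented by the one with the highest mean level. The members and lists were chosen with earlier results of these data known. Named with values are the 6 members with the largest change in each direction and comparison among those whose rats did not overlap, members with a known role in this tissue, members expressed in all litters but not in adult or old rats, and the 4 with the smallest adjusted p among litters; Gdf5, Gdf7, Bmp5, Bmper, Fgfbp1, Fgf1, Fgf3, Fgf14, Fgf15 and single pathway genes were added for description where this rule did not name them. Alternatives were 75th percentile and quantile scaling, normexp (offset 50), the authors' matrix, the rat or slide as a random block, litter means, only the groups compared, the methods' t-test, other filters on dim probes, the dimmest tested probe of a gene, and leaving out each rat or litter; a fit of L1 and old rats alone was added after the data were seen.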

Additional observations from a re-analysis of the deposited data

Results flagged for a closer look

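Within single groups, 11 values of the named members stood far from the rest of their group by Dixon's criterion, which sets the gap to the nearest other rat against the range of the group, among 189 combinations of gene and group. Chance alone gives such a gap in about 1 of 20 groups. All values are log2 levels. In the old group, Gdf15 of rat 17 was 3.91 against 3.14 to 3.23 in the others, Bmp1 of rat 18 was 5.72 against 5.88 to 5.91, and Fgf9 of rat 20 was 1.25 against 1.13 to 1.15. In the adult group, rat 16 was highest for Bmp4, at 1.35 against 0.43 to 0.54, and lowest for Fgf2, at 0.52 against 1.02 to 1.12. In litter L2, rat 21 was high for Fgf13, at 3.4 against 1.57 to 1.93, rat 22 low for Fgfr2, at 7.05 against 7.24 to 7.29, and rat 23 high for Fgf9, at 1.91 against 1.73 to 1.77. Rat 24 of the same litter was low for Fgf16, at −2.28 against −0.98 to −0.72, and high for Gdf15, at 3.21 against 2.07 to 2.28; it was the only pup of L2 on another slide. In litter L3, rat 28 was low for Fgf16, at −3.13 against −1.4 to −1.12. Rats 24 and 28 were the only arrays of 1 slide, with 24754 and 24484 probes above background, and the part of the slide in these values was not tested.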

How the results depend on the processing

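Among named members that passed, 1 reversed: Bmp2 between adult and old rats was 0.33 with the lowest tested probe of the gene (adjusted p 0.121) in place of −0.70. With that probe the calls between newborn and adult rats were lost for Bmp1, Bmpr2, Fgfr1op2 and Fgfr2, and between newborn and old rats for Bmpr2. The others that reversed had not passed: between newborn and adult rats Fgfr1 (0.13) was −0.008 with 75th percentile scaling, −0.185 with quantile normalization and −0.175 with normexp and quantile normalization together (called normexp below). Between adult and old rats Fgfr1op2 (−0.025) was 0.056, 0.406 and 0.203 under these settings, and Gdf11 (−0.17) was 0.351 and 0.331 under the last 2. Bmpr2 (−0.11) was 0.157 with normexp. Between newborn and old rats Fgf22 was 0.33 with L1 as the only litter, with or without the other rats in the fit. Leaving out 1 rat moved Fgfr1 between adult and old rats from −0.008 to 0.132, Fgfr1op2 from −0.09 to 0.065, and Gdf7 between newborn and old rats from −0.04 to 0.219.

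Counts of members moved as follows. Higher in adult than in old rats were 5, against 9 with quantile normalization, 8 with the lowest tested probe of a gene, and 3 (at least 2-fold 1, against 2) with litter means, slide as a random block, only the groups compared or the methods' t-test. With normexp, at least 2-fold counts were 4 higher and 3 lower for newborn against adult, 4 lower against old, and 1 higher and 2 lower for adult against old rats, where 6 were lower at all. With only probes above background on all arrays, pups were at least 2-fold lower for 4 members in either comparison, and adult rats were lower than old rats for 6 members, 3 of them at least 2-fold. Leaving out 1 rat gave 3 to 7 members higher and 1 to 2 at least 2-fold higher in adult than in old rats. The cause was not tested. The median change of all probes, 0.15, −0.03 and −0.18 in the 3 comparisons, was −0.03, −0.05 and −0.02 with quantile normalization. Signal over background limits the dim members. No paired analysis was possible because the groups share no rat numbers.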
